A study of Mus musculus with 6 samples.

Results

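Of 10 genes that carry survival signals to B cells, 8 could be measured on these arrays, out of 19935 measured genes in all. They were chosen for what they do, as TNF family receptors and ligands of B cell survival with the TRAF and noncanonical NF-κB proteins behind them, by a rule that uses no measured value, although earlier results of these data were known. A gene was taken as measured when a probe set named it and no other gene, and the brightest such probe set was used. The measured genes were the receptors Tnfrsf13c, Tnfrsf13b and Cd40, the ligand Tnfsf13b, the adaptor Traf2, the kinase Map3k14 and the NF-κB genes Nfkb2 and Relb. Traf3 had no probe set in the annotation used here. The probe set found for Tnfsf13 is shared with Tnfsf12 and the readthrough gene Tnfsfm13.

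RNA came from splenic B cells of 3 CD37KO mice (genotype Cd37 -/-) and 3 WT mice, described as littermates on a C57BL/6J background, with 1 array per mouse. The labels give both groups an age of 3 months, while the study's methods give an older age. CD37 is a tetraspanin of the B cell membrane, and the mice lacked it in all cells. The cells were those left after magnetic beads had removed CD43-positive cells, so cells other than B cells could remain. B220 staining served to assess purity, and the study's methods state that only isolations within a range of high purity were used. Setting each CD37KO array against each WT array makes 9 pairs, which are used below to describe each gene. SE stands for the standard error of a difference in the limma fit. Values are log2 expression after RMA, a method that corrects background, normalises between arrays and combines the probes of a probe set. Because brightness also reflects the probes of a probe set, no gene's level is set against another's.

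A mature B cell lives only as long as it receives BAFF, a soluble TNF family protein made mainly by myeloid and stromal cells. BAFF binds the BAFF receptor (Tnfrsf13c), and both BAFF and its relative APRIL (Tnfsf13) bind TACI (Tnfrsf13b). CD40 receives the corresponding signal from helper T cells. In resting cells TRAF3 and TRAF2 hold the kinase NIK (Map3k14) at a low level by sending it for degradation. Receptor binding removes TRAF3, NIK accumulates, and the NF-κB2 precursor p100 is cut to p52, which enters the nucleus with RelB. Much of this control acts on protein stability, which an array does not read.

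Nfkb2 and Relb are textbook targets of NF-κB itself, so the promoters were searched for the κB consensus, a motif of 10 bases, on both strands. RefSeq promoter windows (GRCm38.p6), each from 250 bases before to 50 bases after a gene's start, were found for 8 of the 10 genes, and Cd40 and Relb were not among them. The motif was present in 2 of these 8 genes, Nfkb2 and Traf3, against 5.14% of all 27025 genes with a window. Of 3 windows of Nfkb2, the first along the chromosome is shown, at chr19:46304487-46304786 on the plus strand, because it held 3 matches, at -39, -38 and -11 from the start. The first 2 overlap. Capitals mark the κB matches.
Nfkb2: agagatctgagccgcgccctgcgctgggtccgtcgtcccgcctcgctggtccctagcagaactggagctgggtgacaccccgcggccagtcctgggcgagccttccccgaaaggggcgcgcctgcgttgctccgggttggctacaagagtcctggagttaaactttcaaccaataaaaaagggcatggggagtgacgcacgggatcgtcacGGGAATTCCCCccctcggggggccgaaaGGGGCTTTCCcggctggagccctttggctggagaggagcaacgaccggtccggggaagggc

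The same motif is printed with 10 bases on each side for Traf3 and for 4 genes of the surrounding pathway that NF-κB is known to control. They are Nfkbia and Bcl3, which encode proteins of the IκB family, Tnfaip3, which encodes the inhibitor A20, and Ltb, which encodes lymphotoxin beta. The sites lie at chr12:111166350-111166379 (plus strand) for Traf3, chr12:55492657-55492686 (minus strand) for Nfkbia, chr7:19822734-19822763 (minus strand) for Bcl3, chr10:19015403-19015432 (minus strand) for Tnfaip3 and chr17:35194410-35194439 (plus strand) for Ltb. Each is written along its gene's own strand. The motif lies on that strand for Traf3 and on the opposite strand for the other 4, so these do not line up with Traf3 base by base.
Traf3: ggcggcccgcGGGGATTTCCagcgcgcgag
Nfkbia: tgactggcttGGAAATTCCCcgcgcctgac
Bcl3: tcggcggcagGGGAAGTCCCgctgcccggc
Tnfaip3: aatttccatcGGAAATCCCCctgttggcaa
Ltb: aagggtgttcGGAAAGTCCCcgggcagggg

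The deleted gene, Cd37, averaged 8.16 ± 0.011 in CD37KO and 11.97 ± 0.13 in WT cells on the log2 scale (SD, n = 3 each). The 3 CD37KO arrays therefore matched their labels. Background was set at a log2 level of 5.77, the 95th percentile of the mean levels of 1015 olfactory receptor genes, which B cells are not expected to use. All 15 measured mature B cell genes were above it in all 6 arrays. The mean level of the 14 without Cd37 was 11.49 to 11.51 in CD37KO arrays and 11.47 to 11.56 in WT arrays. Over all genes, limma called 11 of 19935 at an adjusted p under 0.05 (0.0552%). Values of myeloid, T cell and stromal genes are given further below beside the results they touch.

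Of the 8 survival genes, limma called 0 at an adjusted p under 0.05, against 0.0552% of all genes. At an unadjusted p under 0.05, 1 of the 8, Relb, was higher in CD37KO cells and 0 were lower, against 5.95% of all genes (2.96% higher and 2.99% lower). Relb was also the only one of the 8 whose groups did not overlap, against 11.9% of all genes (4.33% higher and 7.58% lower). A count of 1 in 8 is close to these backgrounds. The log2 differences of the 8 genes ran from -0.13 to 0.16, with 4 above and 4 below 0 and a median of 0.0044, beside a median of -0.019 over all genes. In bulk RNA such as this, fewer cells of a type and less RNA per cell cannot be told apart.

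**Figure D1:**
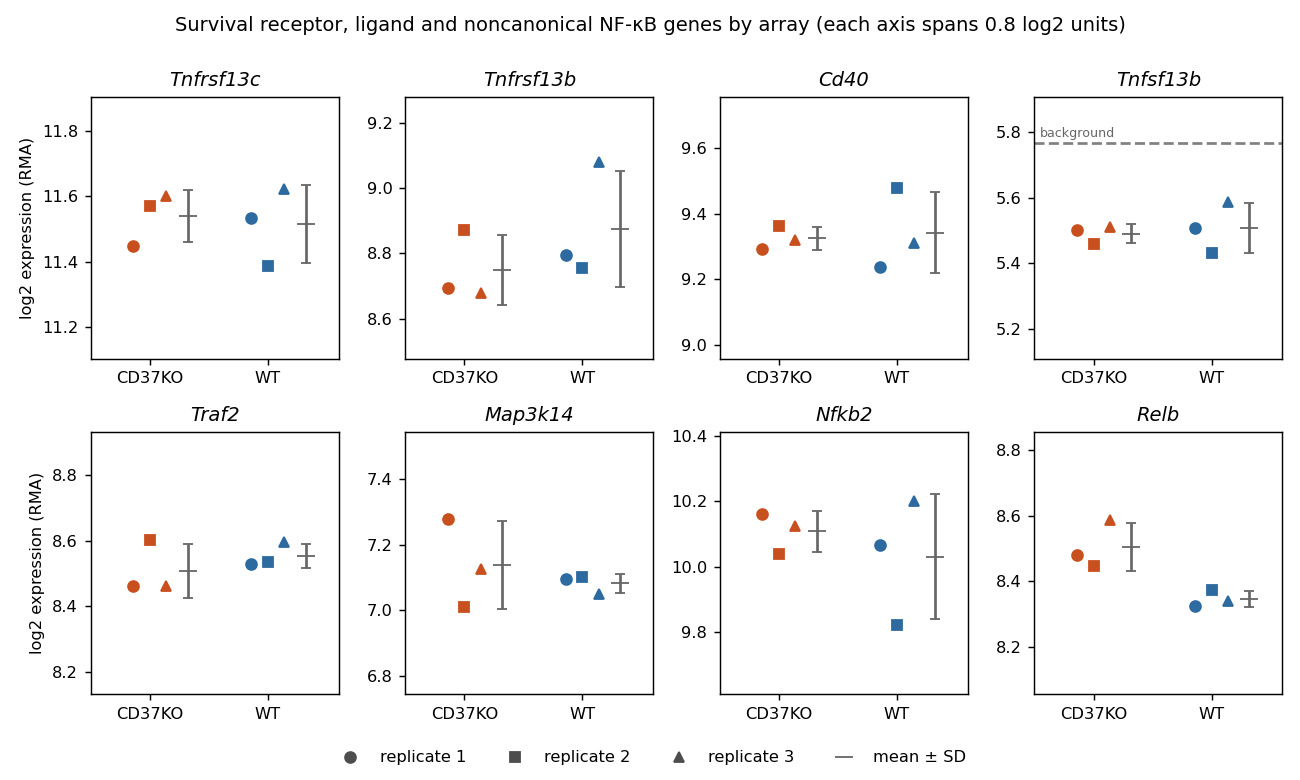
Log2 expression (RMA, vertical axes, each spanning the same number of log2 units) of the 8 measured genes in 3 CD37KO arrays (orange) and 3 WT arrays (blue), with replicates 1, 2 and 3 as circle, square and triangle and the mean ± SD in grey. The groups overlap for every gene except Relb, and Tnfsf13b lies below the dashed background line of 5.77 in all 6 arrays.

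Among the receptors, Tnfrsf13c (Entrez Gene 72049), which encodes the BAFF receptor through which mature B cells are kept alive, was far above background in every array. Its log2 level was 11.45, 11.57 and 11.60 in CD37KO replicates 1 to 3, against 11.53, 11.39 and 11.62 in WT replicates 1 to 3. The lowest and the highest array were both WT, so the CD37KO arrays lay within the WT range. CD37KO and WT cells differed by 0.025 on the log2 scale (SE 0.080, limma adjusted p = 0.955), a fold of 1.02 with a 95% interval from 0.896 to 1.16.

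Tnfrsf13b (Entrez Gene 57916) encodes TACI, which restrains B cell numbers and drives antibody class switching by BAFF and APRIL. It was at 8.69, 8.87 and 8.68 in CD37KO arrays, against 8.79, 8.75 and 9.08 in WT arrays. WT replicate 3 stood above the other 5 arrays, and the CD37KO array was the higher one in only 2 of the 9 pairs. The groups differed by -0.13 on the log2 scale (SE 0.10, limma adjusted p = 0.828), with a 95% interval of the fold from 0.781 to 1.07. Without WT replicate 3 the difference shrank to -0.026.

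Cd40 (Entrez Gene 21939) encodes the receptor for the T cell signal CD40L. It was at 9.29, 9.36 and 9.32 in CD37KO arrays, against 9.24, 9.48 and 9.31 in WT arrays. As with the BAFF receptor, the CD37KO arrays fell between the lowest and the highest WT array. Between CD37KO and WT cells Cd40 differed by -0.016 on the log2 scale (SE 0.076, limma adjusted p = 0.970), and the 95% interval of the fold ran from 0.877 to 1.12.

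The ligand gene Tnfsf13b (Entrez Gene 24099), which encodes BAFF, was below background in every array. It was at 5.50, 5.46 and 5.51 in CD37KO arrays and at 5.51, 5.43 and 5.59 in WT arrays. A difference between values below background is not a measure of RNA, so no fold is given, and limma gave it an adjusted p of 0.962. The probe set that Tnfsf13 (APRIL), Tnfsf12 (TWEAK) and Tnfsfm13 share was at 5.94, 5.69 and 5.94 in CD37KO arrays and at 6.02, 5.52 and 5.73 in WT arrays. It was above background in CD37KO replicates 1 and 3 and WT replicate 1 and below it in the other 3 arrays. All of these values were close to background, and which of the 3 genes gave the signal cannot be told apart.

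Traf2 (Entrez Gene 22030) encodes the adaptor that brings the ubiquitin ligases cIAP1 and cIAP2 to TRAF3 and NIK. It was at 8.46, 8.60 and 8.46 in CD37KO arrays, against 8.53, 8.53 and 8.60 in WT arrays. CD37KO replicate 2 was the highest array of all and the other 2 CD37KO arrays were the lowest. The groups differed by -0.045 on the log2 scale (SE 0.066, limma adjusted p = 0.897), and the 95% interval of the fold ran from 0.872 to 1.08.

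Map3k14 (Entrez Gene 53859) encodes NIK, the kinase that starts the noncanonical branch. It was at 7.28, 7.01 and 7.12 in CD37KO arrays, against 7.10, 7.10 and 7.05 in WT arrays. The highest and the lowest arrays were both CD37KO, and the CD37KO arrays spread more (SD 0.13) than the WT arrays (SD 0.029). Between the groups Map3k14 differed by 0.055 on the log2 scale (SE 0.078, limma adjusted p = 0.891), and the 95% interval of the fold ran from 0.918 to 1.18.

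Nfkb2 (Entrez Gene 18034) encodes p100, and its promoter is printed above. It was at 10.16, 10.04 and 10.12 in CD37KO arrays, against 10.07, 9.82 and 10.20 in WT arrays. WT replicate 2 was the lowest by more than 0.2 log2 units, and the highest array was also WT. The groups differed by 0.077 on the log2 scale (SE 0.098, limma adjusted p = 0.879), with a 95% interval of the fold from 0.903 to 1.23, and the difference was -0.026 without WT replicate 2.

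Relb (Entrez Gene 19698) encodes RelB, the partner that carries p52 to DNA. It was at 8.48, 8.45 and 8.59 in CD37KO arrays, against 8.32, 8.37 and 8.34 in WT arrays. The lowest CD37KO array was higher than the highest WT array, so CD37KO was higher in 9 of 9 pairs. On the log2 scale the groups differed by 0.16 (SE 0.063), a fold of 1.12 with a 95% interval from 1.01 to 1.23. After adjustment the p from limma was 0.801, and an exact two-sided permutation test of this gene alone gave p = 0.10, the smallest that 3 arrays against 3 allow. With each array left out in turn the difference stayed above 0, from 0.12 without CD37KO replicate 3 to 0.19 without CD37KO replicate 2. The unadjusted p from limma, 0.0361 with all arrays, was then 0.0564 and 0.128 with CD37KO replicate 1 or 3 left out and 0.104 and 0.0783 with WT replicate 1 or 3 left out. It was also above 0.05 with quantile normalisation again, with trend and robust moderation and with the replicate number as a block (0.0896, 0.0589 and 0.0680 from limma). It was under 0.05 without CD37KO replicate 2 (0.0298) or WT replicate 2 (0.0437), with median centring (0.0335), with the mean of the probe sets (0.0351), with only genes above background (0.0460), by ordinary least squares (0.0238) and with array weights (0.0075). Relb lies on chromosome 7, as Cd37 does, 404 measured genes away from it in the gene order of GRCm38.p6. Whether this place has a part in its value was not tested. Other pathway genes on this chromosome are given below with their values.

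The SD over all 6 arrays was 0.063 for Traf2, 0.082 for Cd40, 0.092 for both Tnfrsf13c and Map3k14, and 0.10 for Relb. It was largest for Nfkb2, at 0.13, and for Tnfrsf13b, at 0.15. Among the 9874 genes above background in all arrays, Cd40 lay at percentile 29.6 of the SD, Tnfrsf13c at percentile 38.0, Nfkb2 at percentile 68.4 and Tnfrsf13b, the most variable of the members, at percentile 75.

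Genes with a pattern like that of the 2 most variable members were found by the root mean square difference over the 6 arrays, after each gene had been centred on its own mean. The nearest to Nfkb2 among the 9874 genes were Tmub2 (0.014 log2 units), Phf5a (0.021), Ggcx (0.026), Nagpa (0.027) and Phyh (0.029). Each of them, like Nfkb2, was lowest in WT replicate 2, which follows from how they were picked. The nearest to Tnfrsf13b were Tlcd3a (0.015), Gm5460 (0.022), Olfr1040 (0.030), Creb5 (0.030) and Lce1k (0.030). These genes were dim, with levels between 5.79 and 6.81 over the 6 arrays. Each was highest in WT replicate 3, as Tnfrsf13b was, which again follows from how they were picked. Olfr1040 is an olfactory receptor gene.

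The rest of the pathway was read from 5 lists with 75 measured genes, and the smallest adjusted p from limma among them was 0.801. At an unadjusted p under 0.05 there were 6 higher and 3 lower in CD37KO cells, or 12.0% of the 75, beside 5.95% of all genes. The groups did not overlap for 6 genes higher and 8 lower in CD37KO cells, or 18.7% of the 75, beside 11.9% of all genes. Log2 differences were above 0 for 46 of the 75 genes, beside 8337 of all 19935. The count at an unadjusted p under 0.05 moved with single arrays, with 15 genes without CD37KO replicate 2, 4 without CD37KO replicate 1, 3 without CD37KO replicate 3 and 1 without WT replicate 1. The 9 genes with all arrays were Ngfr, Lta, Tnfsf9, Cd40lg, Tnfsf14, Traf1, Traf4, Rela and Bcl2l1. Tnfsf9 and Cd40lg were below background in all 6 arrays and Tnfsf14 in 1 of them, and these 3 were picked for naming after their values had been seen.

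**Figure D2:**
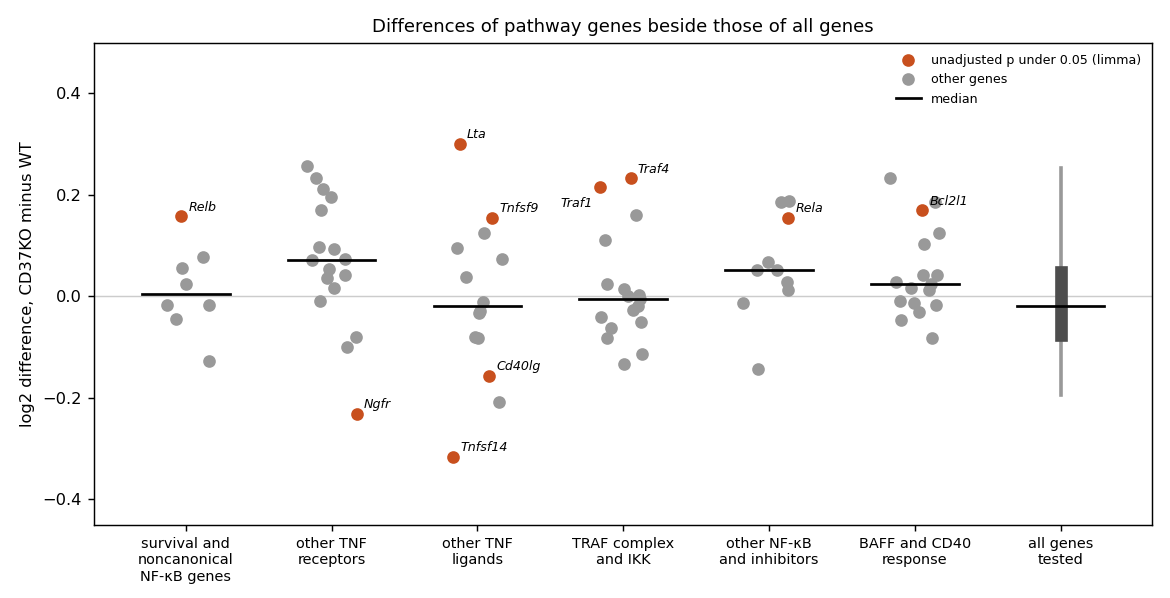
Log2 difference (CD37KO minus WT, vertical axis, 3 arrays each) of each measured gene by list, with orange points at an unadjusted p under 0.05 from limma and black lines at the list medians. The bar on the right gives all 19935 genes, with the central 50% as a thick and the central 95% as a thin line, and most points of every list fall inside the thin line.

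Of the 17 other TNF family receptors, 10 were above background in all arrays, and the median log2 difference was 0.071. Tnfrsf17, which encodes BCMA, the plasma cell receptor for BAFF and APRIL, was below background in every array (4.80 to 4.93 in CD37KO and 4.81 to 4.88 in WT). Ngfr, a nerve growth factor receptor, was at 6.48, 6.73 and 6.45 in CD37KO arrays, against 6.76, 6.75 and 6.84 in WT arrays. The groups did not overlap and differed by -0.23 on the log2 scale (SE 0.085, limma adjusted p = 0.801). Tnfrsf4 (OX40), Tnfrsf14 (HVEM, the receptor of LIGHT) and the death receptor gene Fas had log2 differences of 0.17, 0.23 and 0.21, with overlapping groups.

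Of the 14 other ligands measured, 5 were above background in all arrays and 8 in none, and the median log2 difference was -0.020. Lta encodes lymphotoxin alpha, which B cells make with lymphotoxin beta to maintain the follicle. It was at 6.51, 6.39 and 6.60 in CD37KO arrays, against 6.13, 6.27 and 6.19 in WT arrays. All CD37KO arrays were higher, and the log2 difference of 0.30 (SE 0.076, limma adjusted p = 0.801) was the highest among the 75 genes, a fold of 1.23 with a 95% interval from 1.09 to 1.39. Its unadjusted p from limma was 0.00376, and stayed under 0.05 when any 1 array was left out. Its partner Ltb was at 9.61, 9.58 and 9.70 in CD37KO arrays and at 9.59, 9.42 and 9.67 in WT arrays, a log2 difference of 0.074 with overlapping groups. Cd40lg, the T cell ligand of CD40, stayed at 4.96 to 5.04 in CD37KO and 5.10 to 5.23 in WT arrays, all below background. Tnfsf14, which encodes LIGHT, was at 5.88, 5.81 and 5.55 in CD37KO arrays, against 6.14, 5.90 and 6.15 in WT arrays, without overlap. Its log2 difference of -0.32 (SE 0.10, limma adjusted p = 0.801) was the lowest among the 75 genes, close to background. Tnfsf11 (RANKL) and Tnfsf15 (TL1A) had log2 differences of -0.21 and -0.032, with overlapping groups.

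All 17 measured TRAF complex and IKK genes were above background in every array, with a median log2 difference of -0.0051, and Ripk1 and Chuk were not analysed here. Traf1, an NF-κB target that joins TRAF2 at TNF receptors, was at 9.24, 9.18 and 9.31 in CD37KO arrays, against 8.94, 9.06 and 9.08 in WT arrays. The groups did not overlap and differed by 0.22 on the log2 scale (SE 0.068, limma adjusted p = 0.801). Traf4 was at 9.54, 9.69 and 9.73 in CD37KO arrays, against 9.43, 9.23 and 9.60 in WT arrays, higher in 8 of 9 pairs with a log2 difference of 0.23. In the other direction, Otud7b, a deubiquitinase that protects TRAF3, differed by -0.13 and Traf5 by -0.11, and in neither did the groups overlap. Neither of these 2 reached an unadjusted p under 0.05 from limma.

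All 10 measured genes of the other NF-κB and inhibitor proteins were above background, with a median log2 difference of 0.052. Rela encodes p65, the main activating subunit of the canonical branch. It was at 9.77, 9.66 and 9.71 in CD37KO arrays, against 9.58, 9.48 and 9.61 in WT arrays, without overlap and with a log2 difference of 0.15 (SE 0.066, limma adjusted p = 0.801). Bcl3 and Nfkbia, whose κB sites are printed above, had log2 differences of 0.19 each, and their groups overlapped. Commd1, which limits NF-κB by removing RelA, differed by -0.14, with CD37KO lower in all 9 pairs. Its arrays were close to background, at 5.80 to 5.87 in CD37KO and 5.92 to 6.09 in WT. Bcl3 lies 395 measured genes from Cd37 on chromosome 7. Nearer to Cd37 lie Nfkbib, at 243 (log2 difference 0.068, without overlap), and Nfkbid, at 188 (-0.012, with overlapping groups). Prkcb, of the BAFF and CD40 response list, lies at 743 (0.013, with overlapping groups). The part of these places in the values was not tested. Nfkb1 was not analysed here.

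All 17 BAFF and CD40 response genes were above background, with a median log2 difference of 0.025. Bcl2l1 encodes the survival protein BCL-XL, which CD40 induces. It was at 6.10, 6.04 and 6.00 in CD37KO arrays, against 5.92, 5.92 and 5.79 in WT arrays. All CD37KO arrays were higher, with a log2 difference of 0.17 (SE 0.066, limma adjusted p = 0.801), but all 6 arrays were close to background. Cd80 (0.23), the adhesion gene Icam1 (0.19) and Bcl2l11 (0.13), which encodes the death protein BIM, had positive log2 differences and overlapping groups. Of the 14 measured genes with a κB match in a promoter window, members included, 1 reached an unadjusted p under 0.05 from limma, Bcl2l1, and of the 53 without a match 6 did, beside 5.95% of all genes. The other 16 measured genes, Relb among them, had no window and 3 of them reached it.

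**Figure D3:**
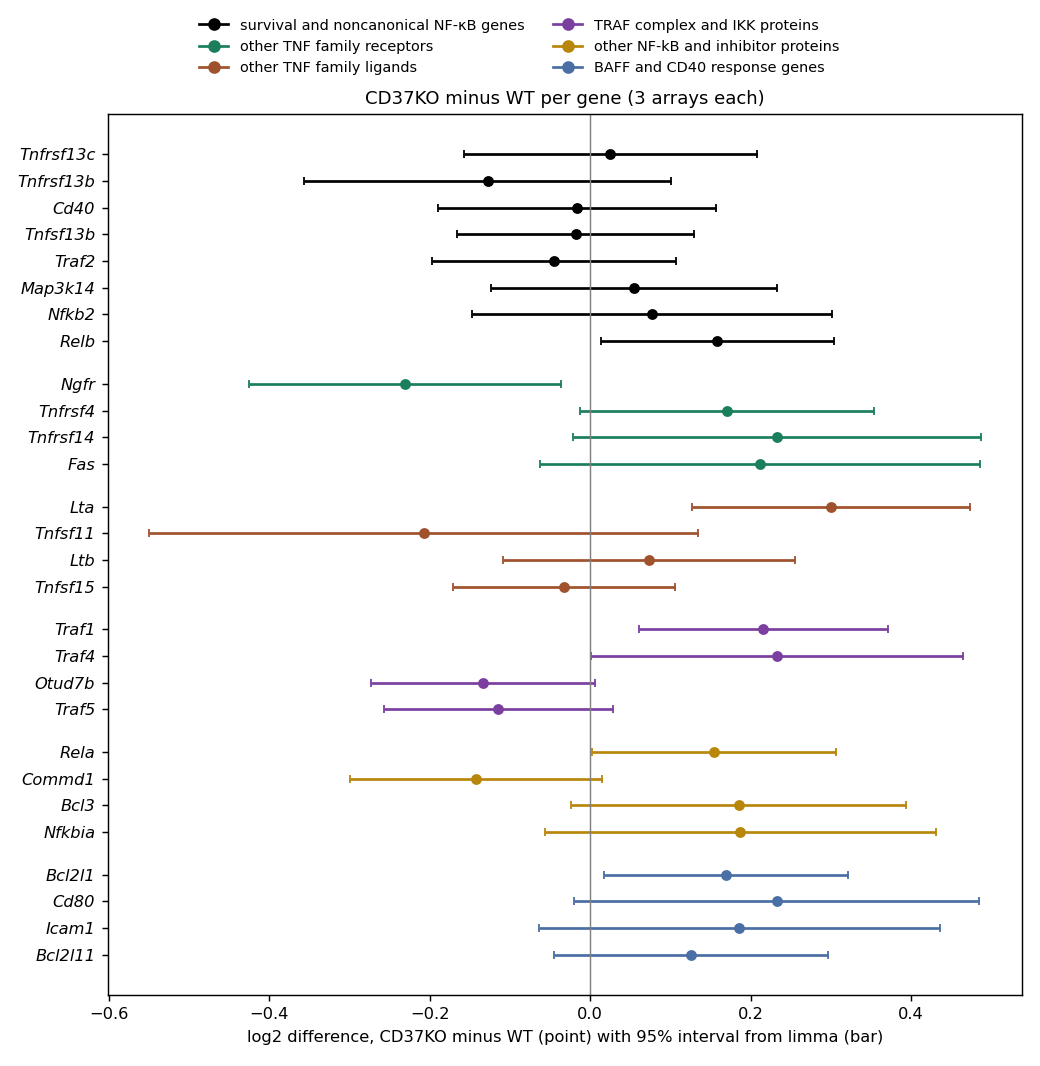
Log2 difference (CD37KO minus WT, horizontal axis, points) with its 95% interval from limma (bars, 3 arrays per group) for the 8 survival and noncanonical NF-κB genes and up to 4 genes of each other list. The interval leaves out 0 for Relb alone among the first 8 genes, and lies farthest above 0 for Lta.

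Marker genes of other splenic cells that make or bind TNF family ligands were read in the same arrays. Of 18 neutrophil genes, 6 were above background in all arrays, and the list mean was 6.22 to 7.35 in CD37KO arrays and 5.80 to 5.99 in WT arrays. The neutrophil means of the groups did not overlap, with CD37KO replicate 1 highest. All 18 log2 differences of the neutrophil genes were above 0, from 0.056 to 2.07, with a median of 0.68. At an unadjusted p under 0.05 from limma, 13 of the 18 were higher in CD37KO cells, beside 5.95% of all genes in either direction. The groups did not overlap for 9 of the 18, beside 11.9% of all genes. The smallest adjusted p from limma among the 18 was 0.258. Ngp (mean 9.34) was the brightest of these genes and Mmp8 (5.14) the dimmest, and Prtn3, Cebpe and Fcnb were below background throughout. Of 18 macrophage and monocyte genes, 15 were above background in all arrays, with list means of 9.35, 8.25 and 9.34 in CD37KO replicates 1 to 3 and 9.26, 8.55 and 8.64 in WT replicates 1 to 3. CD37KO replicates 1 and 3 and WT replicate 1 were the highest, so high arrays were found in both genotypes. Slc40a1, the iron exporter of red pulp macrophages, was the brightest (mean 10.44) and Ccr2 the dimmest (5.10), and Clec4f and Ccr2 were below background throughout.

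Some TNF family values were highest in these same arrays. The probe set shared by Tnfsf13 and its neighbours was at 5.94 to 6.02 in those 3 and at 5.52 to 5.73 in the others. Only those 3 were above the background line of 5.77, but this split depends on the line chosen. With background set at 5.47 all 6 arrays were above it, and with 6.40 none were. Tnfrsf1a, the main receptor of TNF, was at 7.24, 6.24 and 7.02 in CD37KO arrays and at 6.90, 6.32 and 6.52 in WT arrays. Tnfrsf21, a death receptor, was at 9.25, 8.33 and 9.35 in CD37KO arrays and at 9.31, 8.53 and 8.86 in WT arrays. Their SDs over the 6 arrays, 0.41 and 0.43, were above those of all 8 survival genes, and both were named after their values had been seen. The part of the macrophage RNA in these values was not tested. For Relb, CD37KO replicate 2, the array with the lowest macrophage mean, was above all WT arrays. Relb and the neutrophil mean were both higher in each CD37KO array than in each WT array, a pattern that 4.33% of all genes show. The part of either cell type in the Relb values was not tested.

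**Figure D4:**
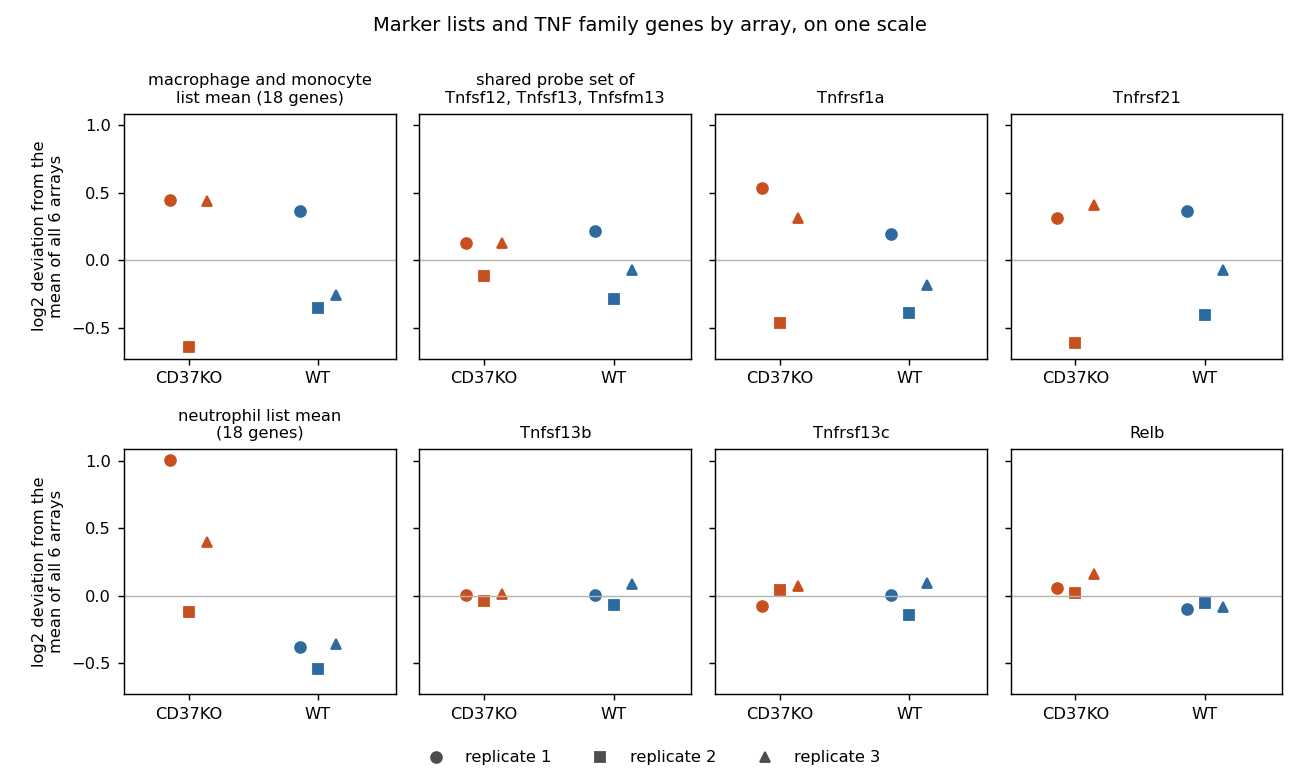
Log2 deviation of each array from the mean of all 6 arrays (vertical axis, one scale for all panels) for the macrophage and neutrophil list means and 6 TNF family or NF-κB readings, in CD37KO (orange) and WT (blue) arrays with replicates as circle, square and triangle. The 3 other panels of the upper row show the same 3 arrays above 0 as the macrophage panel, CD37KO replicates 1 and 3 and WT replicate 1, while Tnfsf13b and Tnfrsf13c stay near 0.

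Of 10 dendritic cell genes, 6 were above background in all arrays and Xcr1, Clec9a, Batf3 and Clec10a in none, with list means of 5.71 to 5.81 in CD37KO and 5.80 to 5.82 in WT arrays. Itgax (mean 6.74) was the brightest of them and Clec10a (4.58) the dimmest. Of 10 T cell genes, 4 were above background in all arrays, Cd3d, Cd3g and Zap70 were in none, and list means were 6.26 to 6.32 in CD37KO and 6.28 to 6.41 in WT arrays. Cd2, which B cells also express in mice, was the brightest (mean 10.89) and Cd3d the dimmest (4.83). Of 11 stromal and follicular dendritic cell genes, which include sources of BAFF, 5 were above background in all arrays, with Pecam1 (mean 10.04) the brightest and Pdgfrb (5.30) the dimmest. Their list means were 6.28 to 6.41 in CD37KO and 6.44 to 6.54 in WT arrays, so the list means of the groups did not overlap. All 11 log2 differences were below 0, with a median of -0.10. The groups did not overlap for 2 of the 11 genes, or 18.2%, beside 11.9% of all genes. Igfbp7, named after its values had been seen, had the lowest difference, -0.71, and list means without it were not computed. The part of neutrophils and of the other cell types in the values of Lta, Traf1, Relb and the other genes was not tested.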

How the data were processed

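The deposited values are log2 expression for 6 arrays, 1 value per probe set and array, and the submitters' processing notes name RMA and the build mm8. The sources used here do not name the software. RMA draws low signals together, so differences near background are understated. The number of arrays limits the precision. Of 35361 probe sets, 21780 named a single gene, 1605 named several and 11976 were not named here. Symbols were updated by Entrez Gene ID (GRCm38.p6), except for 91 probe sets whose ID was not found. The brightest probe set per gene was kept, without a filter on dim genes. CD37KO was compared with WT by two-sided moderated tests (limma 3.58.1 under R 4.3.3, p-values adjusted by Benjamini-Hochberg across 19935 genes). The test was also run on simulated arrays, drawn for each gene independently from limma's own variance model. That run does not bear on variation that genes share within an array. Alternatives were quantile normalisation again, only genes above background, averaging a gene's probe sets, median centring, trend and robust moderation, ordinary least squares, array weights, a replicate block, leaving out each array and other background lines. The members and lists were chosen with earlier results of these data known. Named genes were the 8 members, Cd37, the genes nearest in pattern and, per pathway list, up to 4 genes above background with the smallest unadjusted p. Of each marker list except the mature B cell list, the brightest and dimmest were also named. Further marker genes are named because they were below background throughout, as seen in their values, and Igfbp7 because of its large difference. Nfkbib, Nfkbid and Prkcb are named for their place on chromosome 7, with their values known. Because the builds differ, only the printed RefSeq sequences carry coordinates, which are those of GRCm38.p6. Proteins were not used here.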

Additional observations from a re-analysis of the deposited data

How the results depend on the processing

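Under every alternative run, 0 members and 0 of the 75 other pathway genes were called at an adjusted p under 0.05, and the smallest adjusted p of a member was 0.195, for Relb with array weights, whose other alternatives gave 0.353 to 1.00. The 1 member at an unadjusted p under 0.05 from limma became 0 with quantile normalisation again, with trend and robust moderation and with the replicate block, and 0 to 1 when 1 array was left out. The other pathway genes at an unadjusted p under 0.05, 9 with all arrays, were 5 with only genes above background (fewer genes tested), 20 with array weights and 1 to 15 when 1 array was left out. Over all genes, the 11 called became 3 by ordinary least squares, 19 with array weights, 4 with the replicate block and 4 to 14 when 1 array was left out. The cause of these shifts was not tested. Tnfrsf13c, Cd40, Tnfsf13b, Map3k14 and Nfkb2 changed sign in some alternatives. With array weights Cd40 was 0.050, and with quantile normalisation again Tnfsf13b was 0.026 and Map3k14 -0.0095. Leaving out 1 array gave -0.039 to 0.079 for Tnfrsf13c, -0.069 to 0.052 for Cd40, -0.056 to 0.021 for Tnfsf13b, -0.015 to 0.12 for Map3k14 and -0.026 to 0.16 for Nfkb2. Tnfrsf13b, Traf2 and Relb kept their direction throughout. With only genes above background, Tnfsf13b was not tested. Its values lay below the line of 5.77 in every array, so its differences and their sign are not a measure of RNA. Background at the 90th or 99th percentile left 7 members above it in all 6 arrays. Against the 90th percentile line, 5.47, Tnfsf13b was below background only in replicate 2 of each group. Deviations from the group means of same-numbered arrays correlated at 0.30, 0.10 and -0.12 for replicates 1, 2 and 3 over 9874 genes. The highest correlation of the 9 pairs was between CD37KO replicate 3 and WT replicate 1, at 0.37. CD37KO replicate 2 correlated more with WT replicate 3, at 0.30, than with WT replicate 2. The labels do not say whether a number marks a shared litter or day, and these correlations cannot settle it.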
